A study of Mus musculus with 6 samples.

Results

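Transcripts of 9 transcription factor genes of the immediate early class were measured in cultured fibroblasts from mouse embryos, a mixture of mainly mesenchymal cells. The genes were Fos, Fosb, Fosl1, Fosl2, Jun, Junb, Jund, Egr1 and Atf3. They were chosen by gene symbol, and all 9 were present among the 49315 genes of the deposited table. R206H cells carried 1 copy of the R206H allele of the BMP receptor gene Acvr1 (Acvr1R206H/+), the change known from fibrodysplasia ossificans progressiva, a disease of bone formation in soft tissue. They were set against wild-type cells (Acvr1+/+). Each genotype had 3 libraries, from E13.5 embryos, with cells at passage 0 after 2 days of culture in medium with 10% fetal bovine serum. Both genotypes had the same culture conditions and no added ligand is named in the labels, so all levels here are those of growing cells in serum.

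AP-1 is a dimer of basic leucine zipper proteins. Jun proteins pair with each other or with Fos proteins, whereas Fos proteins need a Jun partner to bind DNA stably. Serum and growth factors switch on Fos, Fosb, Junb and Egr1 within minutes, through kinases that act on serum response factor and its partners, and their messengers decay quickly. Fosl1 and Fosl2, which encode Fra-1 and Fra-2, follow later and persist in growing cells. Egr1 encodes a zinc finger factor of the same early response, and Atf3 encodes a stress-responsive bZIP protein that pairs with Jun proteins. In bone, Fos is known for its role in osteoclast formation, and Fra-1 and Fra-2 for roles in osteoblasts.

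Levels are in TPM, transcripts per 1000000, a unit scaled by gene length, so that genes can be set side by side. Depth was estimated at 21700000, 17800000 and 21200000 reads in R206H libraries 1, 2 and 3, against 17500000, 24600000 and 22600000 in wild-type libraries 1, 2 and 3. The least covered value of the 9 genes was that of Atf3 in R206H library 2, at about 128 reads, for a counting error of 8.84%. Fibroblast markers were present in every library, with 10 of 10 tested and a summed level of 10939 to 13504 TPM in R206H cells against 7173 to 9340 TPM in wild-type cells. Of 18 epithelial markers 13 were tested, and their sum was 209.2 to 417.5 TPM in R206H cells against 568.2 to 666.3 TPM in wild-type cells. The mitochondrial share of TPM was 3.43% to 3.85% in R206H cells and 4.16% to 4.57% in wild-type cells. On the first principal component of all tested genes the R206H libraries lay at -7.24, -20.7 and -39.5 and the wild-type libraries at 18, 20.3 and 29.1. On the second, wild-type library 1 lay at 34.1, apart from the other five at -16.3 to 4.84.

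The DNA just before the start of 4 of the genes is shown because Fos and Junb had the same order of libraries within both genotypes, Atf3 was lower in R206H cells, and Jun differed least clearly among the Jun genes. Each line gives the 120 bases before the RefSeq start (GRCm38.p6), read 5′ to 3′ on the gene's strand. They span chr12:85473770-85473889 (plus strand) for Fos, chr8:84978749-84978868 (minus strand) for Junb, chr1:191183334-191183453 (minus strand) for Atf3 and chr4:95052223-95052342 (minus strand) for Jun. Capitals mark TGACGT, the core of the element bound by CREB and ATF proteins. They also mark the sequence that positions the general transcription machinery, TATAAA. Both were searched on either strand.
Fos: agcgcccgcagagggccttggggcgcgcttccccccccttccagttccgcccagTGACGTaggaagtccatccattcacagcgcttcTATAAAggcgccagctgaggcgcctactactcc
Junb: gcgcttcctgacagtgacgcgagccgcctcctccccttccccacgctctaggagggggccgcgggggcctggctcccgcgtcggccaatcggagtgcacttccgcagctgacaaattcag
Atf3: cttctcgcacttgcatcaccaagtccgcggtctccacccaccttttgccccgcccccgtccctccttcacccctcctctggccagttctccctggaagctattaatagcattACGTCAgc
Jun: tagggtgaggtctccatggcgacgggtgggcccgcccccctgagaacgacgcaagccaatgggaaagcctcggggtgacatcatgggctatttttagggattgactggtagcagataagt
RefSeq windows, from 250 bases before the start to 50 after it, matched 7 of the 9 genes, Fosl1 and Egr1 not among them. In the Fos window TGACGT lay 66 to 61 bases before the start and TATAAA 33 to 28 bases before it. In the Atf3 window the reverse complement of TGACGT lay 8 to 3 bases before the start. That start is 34706 bases inside the gene span of GENCODE release M21, so it belongs to a shorter form of the gene than the span counted. The Junb window had TATAAA at its first 6 bases after the start, which lies 30 bases before the M21 start, and the Jun window had none of the motifs searched. Over all 32851 windows, TGACGT was present in 7.51% and TATAAA in 13.6%. The motif GCGNGGGCG, which Egr1 binds, was present in the windows of Fosb, 50 to 42 bases before the start, and of Fosl2, 79 to 71 bases before it, against 5.55% of all windows. Neither TGANTCA, the common AP-1 site, nor a CArG box, the site of serum response factor, was found in any of the 7 windows. Both strands were searched, and the shares of all windows were 7.81% and 1.63%. Longer variants of the AP-1 site were not searched, such as the tgacatca in the Jun bases shown. Sites more than 250 bases before a start were not searched, so their absence from the promoters of these genes is not shown. The RefSeq start lies 671 bases from the M21 start for Fosl2 and 1210 bases from it for Jund. These matches describe letters in a window and are not evidence of binding.

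Across the 9 genes, none passed the threshold for a difference between genotypes (limma on log2(TPM + 1), Benjamini-Hochberg adjusted p under 0.05), against 2.04% of the 14818 genes tested. At an unadjusted p under 0.05 there were 5 of 9, against 26.1% of all genes tested. Fos, Junb and Jund were on the higher side in R206H cells, against 14.4% of all genes, and Fosl1 and Atf3 on the lower side, against 11.7%. With limma voom on reads rebuilt from TPM, 2 of 9 passed, Fos higher and Fosl1 lower, against 8.68% of all genes in either direction, 4.61% higher and 4.08% lower. The same 2 genes passed among genes at TPM 5 or more (5.41% of genes passed there), and Junb joined them with library weights (12.9% of genes). At an adjusted p under 0.10, Fos, Fosl1 and Jund passed (12.1% of genes). The values of the genotypes did not overlap for 4 of 9 genes, Fos and Jund higher and Fosl1 and Atf3 lower in R206H cells, against 32.9% of all genes, 17.9% higher and 15% lower. The median difference was 0.00013 on the log2 scale for the 9 genes, against 0.022 for all tested genes. The genes therefore had no common direction. In these bulk libraries, fewer cells of a type and less RNA per cell cannot be told apart. With 3 libraries a genotype, the smallest p that an exact permutation test can give is 0.1.

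**Figure D1:**
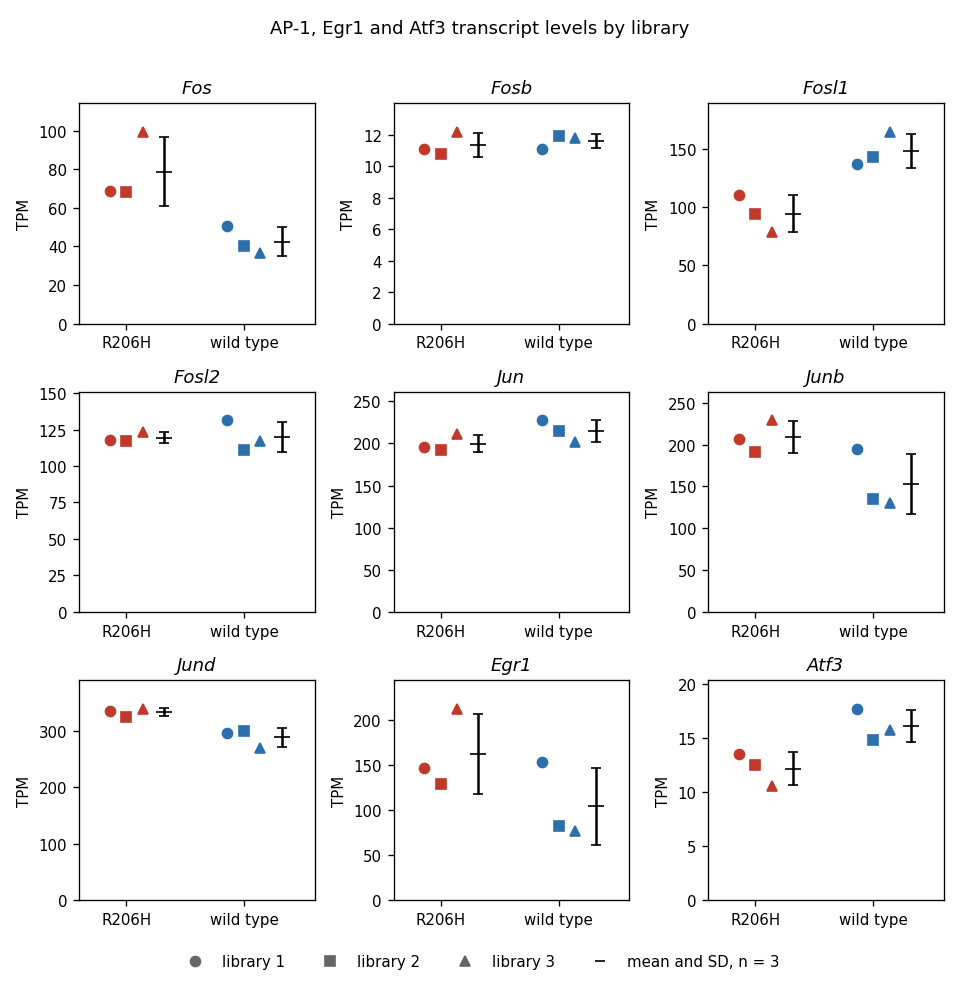
Level in TPM of the 9 genes in each library, with R206H on the left and wild type on the right of each panel. Points are libraries, bars are means and SD of 3 libraries, and all axes start at 0; Fos, Jund, Fosl1 and Atf3 have no overlap between genotypes, and Junb and Egr1 overlap through wild-type library 1.

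Fos (ENSMUSG00000021250, chr12:85473890-85477273, plus strand, GRCm38), the founding member of its family, was at 68.6, 68.0 and 99.2 TPM in R206H libraries 1, 2 and 3, against 50.7, 40.1 and 36.4 TPM in wild-type libraries 1, 2 and 3. All R206H libraries were above all wild-type libraries, and R206H library 3 stood well above the other two. The means were 78.6 ± 17.9 TPM in R206H cells and 42.4 ± 7.47 TPM in wild-type cells (SD, n = 3 each), a ratio of 1.85. The ratio was 1.61 without R206H library 3 and 2.06 without wild-type library 1. The log2 difference was 0.87 (SE 0.177, 95% interval 0.45 to 1.28), which missed the threshold with limma (adjusted p = 0.0569) and passed with voom (log2 difference 0.88, adjusted p = 0.0237). The exact two-sided permutation test gave p = 0.1, the smallest possible.

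Fosl1 (ENSMUSG00000024912, chr19:5447547-5455946, plus strand), which encodes Fra-1, had the opposite sign. Its level was 110.3, 93.8 and 79.0 TPM in R206H libraries 1, 2 and 3, against 136.7, 143.1 and 164.4 TPM in wild-type libraries 1, 2 and 3. Every R206H library was below every wild-type library, and R206H library 3, the highest for Fos, was the lowest for Fosl1. The means were 94.4 ± 15.6 TPM in R206H cells and 148.1 ± 14.5 TPM in wild-type cells (SD, n = 3 each), a ratio of 0.637. The log2 difference was -0.65 (SE 0.127, 95% interval -0.95 to -0.35), which just missed the threshold with limma (adjusted p = 0.0511) and passed it with voom (log2 difference -0.69, adjusted p = 0.0220). Without R206H library 1 it passed with limma (log2 difference -0.77, adjusted p = 0.0306, with 4.87% of all genes past the threshold in that fit). Without any other single library it did not pass, at adjusted p up to 0.174 with limma. The gene span of Fosl1, introns included, shares 2767 bases with that of Ccdc85b on the other strand. Ccdc85b was at 175.8 to 195.8 TPM in R206H cells and 138.9 to 158.3 TPM in wild-type cells. The exons of Fosl1 add up to 2033 bases, and how many of them are shared is not given here. How strand was handled in the counting is not stated, so reads of any shared exon bases cannot be told apart.

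Fosl2 (ENSMUSG00000029135, chr5:32135801-32157842, plus strand), which encodes Fra-2, was at 117.9, 117.0 and 123.5 TPM in R206H libraries and 131.3, 110.9 and 117.0 TPM in wild-type libraries. The ranges overlapped almost fully, and the means were 119.5 ± 3.55 TPM in R206H cells and 119.7 ± 10.5 TPM in wild-type cells (SD, n = 3 each). The log2 difference had a 95% interval of -0.17 to 0.17 (adjusted p = 0.999 with limma), and its sign turned with the scaling. Fosb (ENSMUSG00000003545, chr7:19302696-19310051, minus strand), whose protein can replace Fos in the dimer, was at 11.1, 10.8 and 12.2 TPM in R206H libraries and 11.1, 11.9 and 11.8 TPM in wild-type libraries. Here too the genotypes overlapped, with a 95% interval of -0.24 to 0.18 for the log2 difference (adjusted p = 0.857 with limma). These intervals leave room for small differences in Fosl2 and Fosb.

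The opposite placement of Fos and Fosl1 can also be read as a ratio within each library. Because each gene was free of overlap, with opposite signs, this ratio had to be free of overlap too. Its separation and its permutation p are therefore a description and no further evidence. The ratio of Fos to Fosl1 was 0.622, 0.725 and 1.26 in R206H libraries 1, 2 and 3, against 0.371, 0.280 and 0.221 in wild-type libraries 1, 2 and 3. R206H library 3 was the only library with more Fos than Fosl1. The mean ratio was 0.867 ± 0.340 in R206H cells and 0.291 ± 0.0755 in wild-type cells (SD, n = 3 each), which is 2.98 times as high in R206H cells (exact permutation p = 0.1, the smallest possible). Fos made up 22.3%, 23.5% and 31.6% of the summed TPM of the 4 Fos family genes in R206H libraries, against 15.4%, 13.1% and 11.0% in wild-type libraries. Fosl1 made up 35.8%, 32.4% and 25.2% in R206H libraries, against 41.4%, 46.7% and 49.9% in wild-type libraries. The shares of Fosl2, at 39.4% ± 1.05 in R206H cells and 37.2% ± 2.30 in wild-type cells, and of Fosb, at 3.73% ± 0.133 in R206H cells and 3.61% ± 0.269 in wild-type cells (SD, n = 3 each), overlapped between genotypes. The summed level of the family overlapped as well, at 307.9, 289.6 and 314.0 TPM in R206H libraries and 329.9, 306.0 and 329.5 TPM in wild-type libraries (exact permutation p = 0.3). The shares of Fos and Fosl1 were thus separated between genotypes in every library, and the size of the pool was not. Because shares sum to a whole, those of Fos and Fosl1 are not independent of each other.

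**Figure D2:**
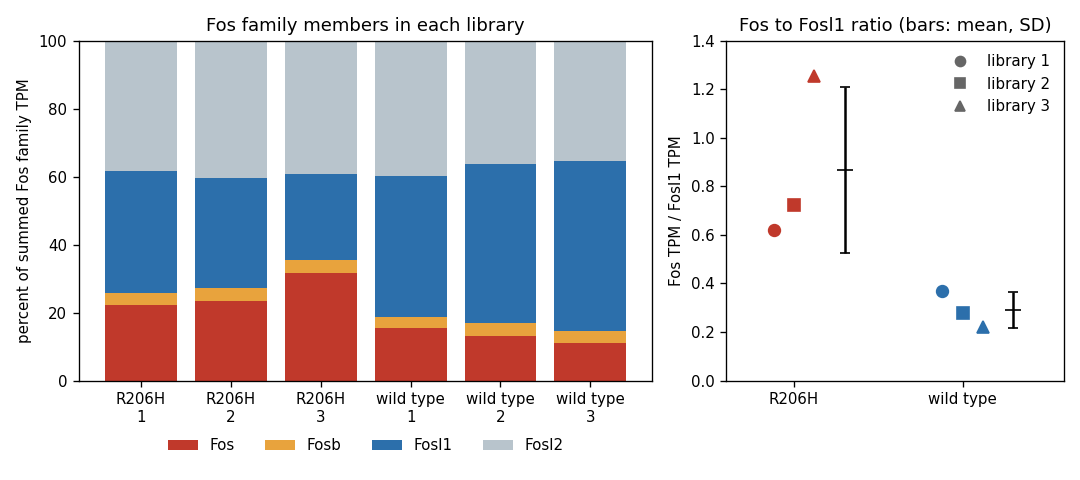
Left, percent of summed Fos family TPM taken by Fos, Fosb, Fosl1 and Fosl2 in each library; right, ratio of Fos TPM to Fosl1 TPM in each library, with mean and SD of 3 libraries. Fos holds 22.3% to 31.6% in R206H libraries and 11.0% to 15.4% in wild-type libraries, and the ratio runs from 0.622 to 1.26 in R206H libraries and from 0.221 to 0.371 in wild-type libraries.

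Among the Jun genes, which supply the partner that every Fos protein needs, Jund was the most abundant in every library. Jund (ENSMUSG00000071076, chr8:70698949-70700616, plus strand), known for steady expression, was at 335.6, 324.5 and 339.4 TPM in R206H libraries 1, 2 and 3 and at 296.7, 299.6 and 268.7 TPM in wild-type libraries 1, 2 and 3. The genotypes did not overlap, though the gap was small, with means of 333.2 ± 7.74 TPM in R206H cells and 288.4 ± 17.1 TPM in wild-type cells (SD, n = 3 each). The log2 difference was 0.21 (SE 0.0586, 95% interval 0.07 to 0.35) and did not pass (adjusted p = 0.0895 with limma). Only 6.17% of all tested genes had a smaller SD among R206H libraries than Jund on the log2 scale.

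Junb (ENSMUSG00000052837, chr8:84974484-84978718, minus strand), an early gene whose protein is a weaker activator than Jun in many settings, was at 207.1, 191.4 and 229.1 TPM in R206H libraries 1, 2 and 3, against 194.3, 135.0 and 130.0 TPM in wild-type libraries 1, 2 and 3. Wild-type library 1 lay among the R206H libraries, and the other 2 wild-type libraries lay well below. The means were 209.2 ± 18.9 TPM in R206H cells and 153.1 ± 35.7 TPM in wild-type cells (SD, n = 3 each). The log2 difference was 0.47 (SE 0.155, 95% interval 0.10 to 0.83, adjusted p = 0.123 with limma). Without wild-type library 1 it was 0.65 and passed (adjusted p = 0.0437 with limma, with 1.94% of all genes past the threshold in that fit). Without any other single library it did not pass, at adjusted p up to 0.315 with limma. The gene span of Junb shares 351 bases with that of Prdx2 on the other strand, at 292.2 to 326.9 TPM in R206H cells and 277.8 to 287.8 TPM in wild-type cells.

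Jun (ENSMUSG00000052684, chr4:95049034-95052222, minus strand), the classical partner of Fos, was at 195.6, 192.3 and 211.0 TPM in R206H libraries 1, 2 and 3 and at 227.5, 214.5 and 202.1 TPM in wild-type libraries 1, 2 and 3. The ranges overlapped, and the log2 difference was -0.10 (SE 0.0644, 95% interval -0.26 to 0.05, adjusted p = 0.352 with limma). Within libraries, Jun took 26.9% ± 0.357 of the summed Jun family TPM in R206H cells and 32.8% ± 1.01 in wild-type cells (SD, n = 3 each). These shares did not overlap, whereas those of Junb and Jund did (exact permutation p = 0.2 and 0.7). Shares sum to a whole, so that of Jun is not independent of Junb and Jund, which were on the higher side in R206H cells. The ratio of Junb to Jun was 1.06, 0.995 and 1.09 in R206H libraries, against 0.854, 0.630 and 0.644 in wild-type libraries. The ratio of Jund to Jun was 1.72, 1.69 and 1.61 in R206H libraries, against 1.30, 1.40 and 1.33 in wild-type libraries. Both ratios were free of overlap, at the smallest possible exact permutation p of 0.1. The share of all gene pairs without overlap was not computed, and 32.9% of single tested genes had no overlap. The summed Jun family level was 742.0 ± 35.8 TPM in R206H cells and 656.2 ± 59.2 TPM in wild-type cells (SD, n = 3 each), with overlap (exact permutation p = 0.2). There was more Jun than Fos family messenger in every library, with a ratio of 2.40 to 2.48 in R206H cells and 1.82 to 2.18 in wild-type cells.

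Egr1 (ENSMUSG00000038418, chr18:34859823-34864984, plus strand) varied most of the 9 genes. Its level was 145.9, 128.3 and 212.2 TPM in R206H libraries 1, 2 and 3, against 153.1, 81.8 and 76.6 TPM in wild-type libraries 1, 2 and 3. Wild-type library 1 exceeded R206H libraries 1 and 2, so the genotypes overlapped. The means were 162.1 ± 44.2 TPM in R206H cells and 103.8 ± 42.7 TPM in wild-type cells (SD, n = 3 each). The log2 difference was 0.68 with a wide 95% interval of -0.01 to 1.36 (adjusted p = 0.197 with limma), and it ranged from 0.47 to 0.99 with each library left out in turn. The highest of these was the value without wild-type library 1 (log2 difference 0.99, adjusted p = 0.0621 with limma), where the ratio of means was 2.05 against 1.56 with all libraries. Among all tested genes, 87.0% had a smaller log2 SD in R206H libraries and 93.4% had a smaller one in wild-type libraries.

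Atf3 (ENSMUSG00000026628, chr1:191170296-191218039, minus strand) was at 13.49, 12.5 and 10.5 TPM in R206H libraries 1, 2 and 3, against 17.7, 14.8 and 15.7 TPM in wild-type libraries 1, 2 and 3. All R206H libraries were below all wild-type libraries. The means were 12.2 ± 1.50 TPM in R206H cells and 16.1 ± 1.48 TPM in wild-type cells (SD, n = 3 each), and the log2 difference was -0.38 (SE 0.117, 95% interval -0.66 to -0.10), which did not pass (adjusted p = 0.106 with limma). Atf3 and Fosb were the 2 least abundant of the 9 genes in both genotypes.

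**Figure D3:**
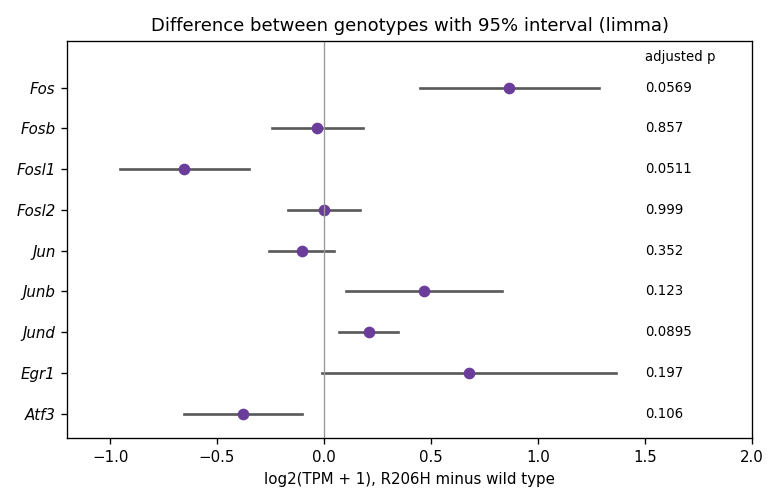
Difference between genotypes, R206H minus wild type, on the log2(TPM + 1) scale for the 9 genes, with points for the limma estimate, bars for its 95% interval and the adjusted p at the right. Fos has the largest positive value, 0.87, Fosl1 the largest negative one, -0.65, and Egr1 the widest interval.

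Ordered by mean level in R206H cells, Jund (333.2 TPM) came first, then Junb (209.2), Jun (199.6), Egr1 (162.1), Fosl2 (119.5), Fosl1 (94.4), Fos (78.6), Atf3 (12.2) and Fosb (11.3). The neighbours Junb and Jun, Jun and Egr1, Fosl1 and Fos, and Atf3 and Fosb had overlapping ranges there. In wild-type cells the order was Jund (288.4 TPM), Jun (214.7), Junb (153.1), Fosl1 (148.1), Fosl2 (119.7), Egr1 (103.8), Fos (42.4), Atf3 (16.1) and Fosb (11.6). Junb and Fosl1, and Fosl2 and Egr1, were the neighbours with overlapping ranges in wild-type cells. Fos family genes thus differed in their order, with Fosl2 above Fosl1 in all 3 R206H libraries and below it in all 3 wild-type libraries.

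Fos, Junb and Egr1 ranked the libraries alike within each genotype. Library 3 was highest and library 2 lowest among R206H libraries, and library 1 was highest and library 3 lowest among wild-type libraries. R206H library 3 was the highest of its genotype for 7 of the 9 genes, against 42.4% of all tested genes, with Fosl1 and Atf3 as the exceptions. Wild-type library 1 was the highest of its genotype for 6 of the 9, against 45.9% of all tested genes. Wild-type library 1 is the library that lay apart on the second principal component. The values of Junb and Egr1 without it stand with those genes above.

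Genes whose profile was most like that of each of the 9 were sought among 10200 genes with a mean of at least 5 TPM, by Pearson r of log2(TPM + 1) over the 6 libraries. With 6 points that share 2 genotypes and so many genes, values near 1 are common, and r is given as a description. Nearest to Fos were Rabep2 (r = 0.998), the Wnt receptor gene Fzd2 (0.998) and Phkb (0.998). Fzd2 was at 129.7, 135.6 and 171.6 TPM in R206H libraries and 109.8, 93.1 and 86.3 TPM in wild-type libraries. Nearest to Fosl1 were Rasgrp3 (r = 1.00), a Ras exchange factor gene, Trmt1 (0.999) and Srfbp1 (0.999), whose product binds serum response factor. Rasgrp3 was at 8.96, 7.12 and 5.58 TPM in R206H libraries and 12.3, 13.3 and 15.9 TPM in wild-type libraries. For Fosl2 the nearest genes were Insr, Ylpm1 and Agrn (r = 0.989 to 0.996), and for Fosb they were Uevld, Lrfn4 and Prmt9 (0.964 to 0.977). Metrn, Fam212a and AF357399 were nearest to Jun (0.978 to 0.992), and Tmem9, Rilpl1 and Vps8 to Junb (each 0.998). Smco4, Trmt12 and Ankfy1 were nearest to Jund (0.994 to 0.999). Egr1 had Ppox, Cnot8 and Rnf144a (0.993 to 0.996), and Atf3 had Tigar, the claudin gene Cldn6 and Ctps (0.996 to 0.997). The mean standardized profile of the 9 genes was closest to Sema4c, Acads, Atp6v0a2, Birc3 and Nelfa (0.980 to 0.987).

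Of 38 other immediate early genes, 37 were tested, and 1 rose and 2 fell in R206H cells, against 1.26% and 0.79% of all tested genes. The cytokine feedback gene Socs3 rose, at 37.7, 39.7 and 61.2 TPM in R206H libraries 1, 2 and 3 against 24.2, 20.3 and 16.4 TPM in wild-type libraries 1, 2 and 3 (log2 difference 1.13, adjusted p = 0.0496 with limma). The proto-oncogene Myc fell, at 85.8, 71.1 and 66.0 TPM in R206H libraries against 116.0, 113.7 and 115.9 TPM in wild-type libraries (log2 difference -0.63, adjusted p = 0.0454 with limma). Tiparp, a mono-ADP-ribosyltransferase gene, fell as well, at 24.7 ± 3.67 TPM in R206H cells and 43.3 ± 5.67 TPM in wild-type cells (SD, n = 3 each; log2 difference -0.79, adjusted p = 0.0476 with limma). Ier5l had a log2 difference of 0.29 that did not pass (adjusted p = 0.0509 with limma). At an unadjusted p under 0.05, 6 genes were higher and 11 lower, against 14.4% and 11.7% of all tested genes, and the list had a median log2 difference of -0.12. Voom called 4 higher and 7 lower, against 4.61% and 4.08% of all genes, adding Ier5l, Btg2 and Zfp36 on the higher side and Maff, Ptgs2, Plk2, Plk3 and Hbegf on the lower side, genes named after their values were seen. The closest relatives of Egr1 did not pass. Egr2 was at 8.86, 8.59 and 8.23 TPM in R206H libraries against 7.24, 5.39 and 3.31 TPM in wild-type libraries (adjusted p = 0.139 with limma), Egr3 overlapped between genotypes, and Egr4 was too low to test.

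**Figure D4:**
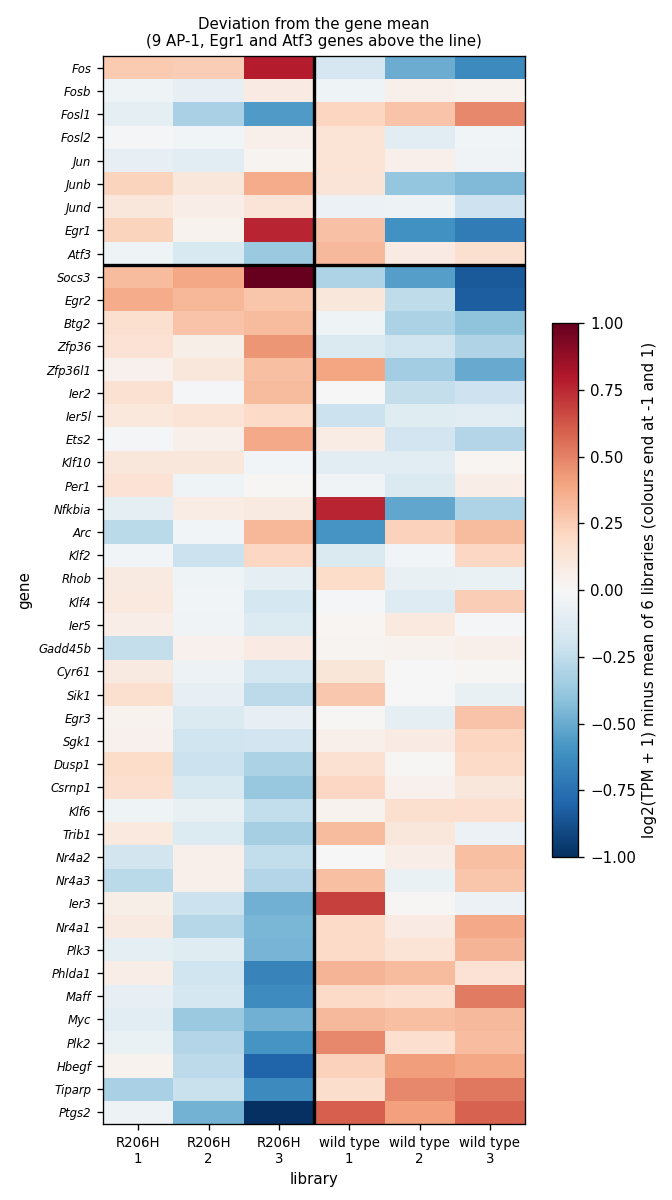
Deviation of log2(TPM + 1) from each gene's mean over 6 libraries, for the 9 AP-1, Egr1 and Atf3 genes above the line and the 37 other tested immediate early genes below it; red is above and blue below the gene's mean, and columns are R206H libraries on the left and wild-type libraries on the right. Fos, Junb and Egr1 share their highest R206H library with Socs3, and Fosl1 shares its lowest with Myc and Tiparp.

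The calls for Socs3, Myc and Tiparp lay close to the threshold. With each library left out in turn, Myc and Socs3 each stayed past it in 1 of 6 fits and Tiparp in 2 of 6, and with voom they had adjusted p = 0.0142, 0.0217 and 0.0166.

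Upstream of the 9 genes, none of 25 kinases and factors passed with limma, with 1 higher and 1 lower at an unadjusted p under 0.05 and 1 called higher by voom. Over all tested genes the shares were 14.4% and 11.7% at that p, and voom called 4.61% higher. The list had a median log2 difference of -0.0076. The called gene was Mkl1, a coactivator of serum response factor, at 61.6, 62.4 and 63.1 TPM in R206H libraries against 48.8, 49.8 and 54.3 TPM in wild-type libraries (log2 difference 0.29, adjusted p = 0.0593 with limma and 0.0442 with voom). The kinase gene Map2k4, the ternary complex factor gene Elk1 and the kinase gene Rps6ka1 did not pass, at log2 differences of -0.15, 0.21 and 0.15 (adjusted p = 0.158, 0.198 and 0.273 with limma).

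Of 14 feedback inhibitors, which dampen the kinases or Egr1 itself, none passed with limma. At an unadjusted p under 0.05 none was higher and 7 were lower, against 14.4% higher and 11.7% lower over all tested genes. Voom called 4 lower, against 4.08% of all genes, and the median log2 difference was -0.22, against 0.022 for all tested genes. Spry2, an inhibitor of growth factor receptor signalling, was at 140.6, 123.0 and 98.4 TPM in R206H libraries against 164.5, 156.8 and 179.3 TPM in wild-type libraries (log2 difference -0.48, adjusted p = 0.0828 with limma). Dusp5, a phosphatase gene for ERK, was at 89.1, 70.0 and 45.3 TPM in R206H libraries against 104.4, 114.6 and 117.8 TPM in wild-type libraries (log2 difference -0.76, adjusted p = 0.0937 with limma). Both had no overlap between genotypes and their lowest value in R206H library 3. Spry4 and Dusp10 had log2 differences of -0.56 and -0.34 (adjusted p = 0.0847 and 0.0908 with limma). Nab1 and Nab2, which encode corepressors that bind Egr proteins, did not pass, at log2 differences of -0.01 and -0.18 (adjusted p = 0.954 and 0.293 with limma).

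Among genes known as targets of AP-1, 23 of 24 listed were tested, none rose and 2 fell, against 1.26% and 0.79% of all tested genes, and the median log2 difference was -0.50. The epidermal growth factor family ligand gene Ereg fell, at 16.5, 18.1 and 15.6 TPM in R206H libraries against 23.8, 27.5 and 24.2 TPM in wild-type libraries (log2 difference -0.56, adjusted p = 0.0476 with limma). The collagenase gene Mmp13 fell, at 7.68, 14.7 and 12.5 TPM in R206H libraries against 25.3, 29.5 and 28.1 TPM in wild-type libraries (log2 difference -1.22, adjusted p = 0.0476 with limma). Each stayed past the threshold in 1 of 6 fits with a library left out. The urokinase receptor gene Plaur, at 108.9 ± 30.2 TPM in R206H cells and 209.6 ± 21.1 TPM in wild-type cells (SD, n = 3 each), and the cytokine gene Il11 had log2 differences of -0.97 and -1.12 (adjusted p = 0.0508 and 0.0509 with limma). At an unadjusted p under 0.05, 2 of the targets were higher, the matrix protease genes Mmp2 and Mmp14, and 13 were lower, against 14.4% and 11.7% of all tested genes. Voom called 2 higher and 5 lower, against 4.61% and 4.08% of all genes. Of the 23 values, 16 were negative and 7 were positive, and the median over all tested genes was 0.022. Whether any AP-1 protein or Atf3 set the levels of these targets was not tested.

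Of 14 Egr1 targets, none rose and 1 fell, with 5 higher and 3 lower at an unadjusted p under 0.05, 4 higher and 2 lower with voom, and a median log2 difference of 0.03. The shares over all tested genes were 14.4% and 11.7% at that p and 4.61% and 4.08% with voom. Ngfr, a neurotrophin receptor gene, fell, at 24.3, 17.1 and 13.4 TPM in R206H libraries against 36.8, 41.6 and 41.0 TPM in wild-type libraries (log2 difference -1.12, adjusted p = 0.0476 with limma), and stayed past the threshold in 1 of 6 fits with a library left out. The chromatin protein gene Hmga1 had a log2 difference of -0.78, the cell cycle inhibitor gene Cdkn1a 0.25 and the growth factor gene Fgf2 0.43, and these did not pass (adjusted p = 0.0508, 0.0543 and 0.0722 with limma). Hmga1 has close copies in the genome, so its counts are uncertain. Fn1 is a member of both the Egr1 target list and the fibroblast marker list.

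**Figure D5:**
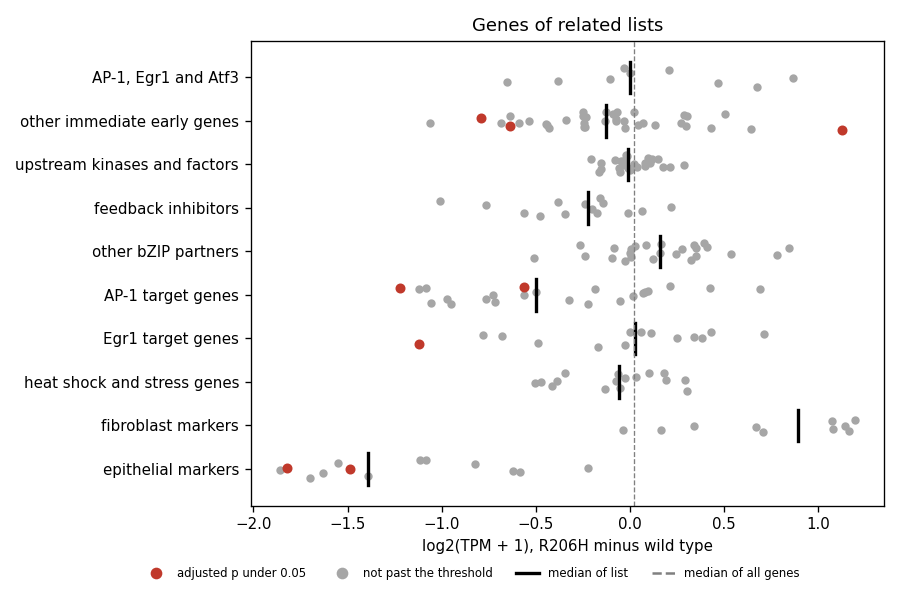
Log2 difference, R206H minus wild type, of each tested gene in the related lists, with red for an adjusted p under 0.05; black bars are list medians and the dashed line is the median of all 14818 tested genes. The AP-1 target list has a median of -0.50, the feedback inhibitor list -0.22, the fibroblast markers 0.89 and the epithelial markers -1.39.

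Cell type markers were read beside these genes. Over all tested genes, 1.26% rose and 0.79% fell with limma, and voom called 4.61% higher and 4.08% lower. At an unadjusted p under 0.05, 14.4% were higher and 11.7% lower. Of 10 fibroblast markers none passed with limma, 7 were higher and none lower at an unadjusted p under 0.05, and voom called 7 higher, with Thy1 at a log2 difference of 1.17 (adjusted p = 0.0501 with limma). Col1a2, Col1a1 and Pdgfrb had log2 differences of 1.08, 1.20 and 0.67 that did not pass. Of 13 tested epithelial markers 2 fell, Cldn3 and Epcam, 12 were lower at an unadjusted p under 0.05 and voom called 6 lower, and Krt7 and Cldn4 had log2 differences of -1.08 and -1.70 that did not pass. With a library left out, Cldn3 stayed past the threshold in 3 of 6 fits and Epcam in 2 of 6. The summed epithelial level was 417.5, 302.0 and 209.2 TPM in R206H libraries 1, 2 and 3. In wild-type libraries 1, 2 and 3 it was 665.1, 568.2 and 666.3 TPM. Its lowest value was in R206H library 3, where Fos was highest and Fosl1 lowest. Krt19, the largest part of the sum in R206H cells, was also lowest there. Krt14 and Cdh1 were lowest in R206H library 2 instead. Wild-type libraries 1 and 3 had nearly equal sums but differed in Fos, at 50.7 and 36.4 TPM. The summed fibroblast level was 10939, 12083 and 13504 TPM in R206H libraries, against 9340, 7971 and 7173 TPM in wild-type libraries. Its highest value was in R206H library 3. The part of cell composition in the levels of Fos, Fosl1 and the AP-1 targets was not tested.

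Markers of 4 further cell types were listed. Their counts stand against 1.26% higher and 0.79% lower of all tested genes with limma, and 4.61% and 4.08% with voom. At an unadjusted p under 0.05 these shares were 14.4% and 11.7%. Of 9 tested macrophage markers none passed with limma or voom, with 2 higher at an unadjusted p under 0.05, and their sum was 56.1 to 134.6 TPM in R206H cells and 65.8 to 100.6 TPM in wild-type cells. C1qa, Fcer1g, Cd68 and Adgre1 had log2 differences of 0.64, 0.92, 0.25 and 0.50. Of the 9 values 6 were positive and 3 negative. The negative ones were those of Csf1r, Tyrobp and Lyz2, at -0.016, -0.018 and -0.015. None of 7 endothelial markers passed with limma or voom, with 1 lower at an unadjusted p under 0.05 and a sum of 34.0 to 42.5 TPM in R206H cells and 32.6 to 60.0 TPM in wild-type cells. Kdr, Erg, Cdh5 and Flt1 had log2 differences of -0.50, 0.79, -0.96 and 0.24. Cdh5 was at 11.2, 2.67 and 2.22 TPM in wild-type libraries 1, 2 and 3, and Erg at 4.39, 6.96 and 15.6 TPM in R206H libraries 1, 2 and 3. Wild-type library 1 was the highest of its genotype for 8 of the 10 listed endothelial markers, against 45.9% of all tested genes. The 10 include markers too low to test. Among the other listed markers, this count was 8 of 10 for fibroblasts and 14 of 18 for epithelium. It was 4 of 12 for macrophages, 4 of 12 for skeletal muscle and 2 of 10 for neural cells. None of 10 skeletal muscle markers passed with limma or voom or at an unadjusted p under 0.05, with a sum of 514.3 to 996.1 TPM in R206H cells and 645.8 to 884.8 TPM in wild-type cells. Tnnt2, Actc1, Mymk and Ttn had log2 differences of -1.005, -0.60, -0.34 and -0.28. Of 8 neural markers, Prph and Tubb3 rose and Foxd3 and Sox10 fell, with 2 higher and 3 lower both at an unadjusted p under 0.05 and with voom, and with a sum of 105.9 to 118.4 TPM in R206H cells and 83.8 to 89.3 TPM in wild-type cells. With a library left out, Prph and Tubb3 stayed past the threshold in 2 of 6 fits and Foxd3 and Sox10 in 1 of 6. No listed marker was at 0 in every library.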

How the data were processed

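The authors deposited a table of TPM for Ensembl genes in 6 libraries, made from ribosome-depleted total RNA read from both ends at 150 bp, per the labels' protocols. The submitters' processing notes name the builds mm10 and GRCm38 and, without roles or versions, DESeq2, featureCounts, STAR, Subread and Trimmomatic. Annotation release, gene lengths and strand handling were not stated. Because TPM values add up to a fixed total, more of an abundant transcript lowers the rest. Gene positions and exon-union lengths came from GENCODE release M21, in which 49056 genes matched. The product of TPM and length came in steps of 1 read, within 0.05, for 91.1% to 91.4% of values under 100 reads, which gave the depths; the counting error covers counting only.

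Tests covered genes that reached TPM 1 in 3 or more libraries and ran on log2(TPM + 1), R206H minus wild-type, with limma 3.58.1 (R 4.3.3, lmFit and eBayes with a trend, two-sided, no covariate) and Benjamini-Hochberg adjustment at 0.05 over all genes tested, and the method was tested on simulated data. Fold changes on this scale understate changes of low genes. Single values had an exact permutation test over the 20 splits. The design text calls the libraries biological replicates but the labels name no embryos, so p-values measure the spread between these libraries. The members and the other 13 gene lists were chosen with earlier results of these data known. All 9 members are named. From each list the text names genes past the threshold and, to a total of 4, those with the smallest p. Other names were chosen after values were seen. Areg was not analysed here. Another gene that this rule picks is not reported here. Promoter sequences are from RefSeq (GRCm38.p6). Alternatives were other pseudocounts, filters, scalings, thresholds and limma settings, voom, the replicate number as a block, and libraries left out. Tables were joined with pandas 2.3.3 in Python 3.11.15, and figures drawn with matplotlib 3.10.9.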

Additional observations from a re-analysis of the deposited data

How the results depend on the processing

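The count of the 9 genes past the threshold, 0 with the settings of the report, was 2 with a filter at TPM 5 (Fos and Fosl1), 3 with library weights (Fos, Fosl1 and Junb), 2 with voom (Fos and Fosl1) and 3 at a threshold of 0.10, and 0 to 1 with each library left out in turn (Fosl1 without R206H library 1, Junb without wild-type library 1). Over all genes the count was 303, and it was 129 with a pseudocount of 0.1, 2 without a filter, 587 with a filter at TPM 5, 200 with quantile normalization, 27 without the trend, 1906 with library weights, 1284 with voom, 2 at a threshold of 0.01 and 1787 at 0.10. With each library left out it ran from 0 to 722. It was 0 without R206H library 2 (3082 at an unadjusted p under 0.05), 1 without R206H library 3 or wild-type library 3, 5 without wild-type library 2, 288 without wild-type library 1 and 722 without R206H library 1. It was 0 without both libraries numbered 2 (1932 at an unadjusted p under 0.05). The replicate number as a block gave 0 genes (3301 at an unadjusted p under 0.05) and adjusted p = 0.133 for Fos and 0.132 for Fosl1 with limma. The labels do not say that a number pairs libraries, and deviations of same-numbered libraries correlated at 0.018, 0.0599 and -0.0283. The log2 difference of Fosl2 was -0.025 with median-of-ratios scaling, -0.0067 with quantile normalization, -0.0073 when rescaled without the 50 highest and mitochondrial genes, -0.0265 with voom, -0.038 without both libraries numbered 2, and -0.053 to 0.068 with each library left out. That of Fosb was 0.022 without both libraries numbered 2 and -0.078 to 0.0034 with each library left out. In all 18 alternatives Fos (0.69 to 1.00), Junb (0.36 to 0.65), Jund (0.16 to 0.26) and Egr1 (0.47 to 0.99) kept a positive difference, and Fosl1 (-0.77 to -0.53), Atf3 (-0.45 to -0.29) and Jun (-0.15 to -0.06) a negative one. The causes of these shifts were not tested. With 3 libraries a genotype, exact tests of single values cannot go below p = 0.1.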

Other observations

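Other bZIP genes, whose products can pair with AP-1 proteins or compete for their sites, had no gene past the threshold among 25 tested of 26. At an unadjusted p under 0.05, 6 were higher and 2 lower, against 14.4% and 11.7% of all tested genes. Voom called 2 lower, against 4.08% of all genes, and the median log2 difference was 0.16. The small Maf gene Mafk was at 39.0, 32.8 and 29.2 TPM in R206H libraries 1, 2 and 3, against 47.8, 45.1 and 51.0 TPM in wild-type libraries 1, 2 and 3 (log2 difference -0.51, adjusted p = 0.0617 with limma and 0.0264 with voom). The genotypes did not overlap for Mafk. Atf6, an endoplasmic reticulum stress factor gene, and Creb3l2 did not pass, at log2 differences of -0.24 and 0.33 (adjusted p = 0.1 and 0.117 with limma).

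Heat shock and stress genes, which share triggers with Atf3, had none past the threshold with limma among 16 tested. At an unadjusted p under 0.05, 1 was higher and 5 were lower, against 14.4% and 11.7% of all tested genes. Voom called the same numbers, against 4.61% and 4.08% of all genes, and the median log2 difference was -0.06. The mitochondrial chaperonin genes Hspe1 and Hspd1 and the chaperone gene Hsp90aa1 had log2 differences of -0.34, -0.47 and -0.41 (adjusted p = 0.0565, 0.0646 and 0.0647 with limma), and the cochaperone gene Bag3 had one of 0.30 (adjusted p = 0.0668 with limma). Hspd1 was at 715.6, 668.1 and 536.1 TPM in R206H libraries against 853.0, 910.6 and 879.0 TPM in wild-type libraries, without overlap. These chaperone genes have processed copies in the genome, so their counts are uncertain.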
